A study of Homo sapiens with 2 samples.

Results

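Hashtag14 and Hashtag15 are labels carried by 1693 cells of a pool of human cardiomyocytes, and they are set here against the 4073 cells that carried Hashtag3, Hashtag5, Hashtag6, Hashtag8 or Hashtag9. A barcode was counted as a cell when it held at least 500 genes, at least 1000 gene UMIs (unique molecular identifiers, each standing for 1 captured RNA molecule) and at most 25% of UMIs from mitochondrial genes. Its hashtag was the one with 70% or more of its hashtag UMIs, of which it needed 20 or more. Of 24038 deposited barcodes 21623 passed the filter and 10319 were given to 1 of 13 hashtags, among them 623 to Hashtag14 and 1070 to Hashtag15. The other groups held 664 cells (Hashtag3), 1262 (Hashtag5), 949 (Hashtag6), 746 (Hashtag8) and 452 (Hashtag9).

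All 7 groups came from the same kind of material. Cells of H9, an established human embryonic stem cell line that carried the gCaMP6f fluorescent calcium reporter, were differentiated to cardiomyocytes, frozen at day 15 and thawed in medium with FBS, B27 and the ROCK inhibitor Y-27632. Each sample was stained with a hashtag, an antibody that bears a DNA barcode, and equal numbers of cells were pooled for droplet capture with 10x Genomics reagents. No label says what any hashtag marks, so nothing is known here of what sets the 7 samples apart, and each is treated as an unassigned sample with its own value. The 2 sides were themselves chosen from gene levels in these data, NR2F2 and HCN4 among them, so the contrast is described without a p-value.

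Heart muscle cells of the atria, the ventricles and the pacemaker regions express different sets of regulators, channels and contractile proteins. NR2F2 (COUP-TFII) is an orphan nuclear receptor that maintains atrial identity, while HEY2 and IRX4 are transcription factors of ventricular muscle. HCN4 carries the pacemaker current of the sinus node and is also expressed broadly in immature heart muscle. Cardiomyocytes made from stem cells usually mix these programmes.

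The cells of Hashtag14 and Hashtag15 were the shallower ones. Their median depth was 8073 and 8324 UMIs, against 11677 to 13046 UMIs in the other 5, and their median gene number was 2760 and 2792.5, against 3418 to 3547. Cells in which 12 cardiomyocyte markers (TNNT2, TTN, ACTN2 and others) made up at least 1.5% of UMIs, called the cardiomyocyte gate below, were 94.5% of Hashtag14 and 85.4% of Hashtag15, against 80.3% to 93.0% of the other 5. The gate is a range of a score and not a cell type, and 15.1% of Hashtag14 and 23.9% of Hashtag15 lay near it, at 1% to 2%, against 13.5% to 20.9%. Because depth differed between the sides, each result was also computed within 6000 to 12000 UMIs, within the gate, and within both. Matched depth below means the range of 6000 to 12000 UMIs, which narrowed the depth difference without removing it. Median depth in that range was 8381 and 8487 UMIs in Hashtag14 and Hashtag15, against 9387 to 9840.5 UMIs in the other 5. Levels below are UMIs pooled over the cells of a hashtag, scaled to the same total in every hashtag (CPM). The 95% intervals are exact but speak of counting error alone, since every hashtag is 1 sample.

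NR2F2 lay far above the other hashtags, with the widest gap among 24 listed cardiac transcription factors. Its level was 179 CPM in Hashtag14 and 327 CPM in Hashtag15, against 58.4 in Hashtag3, 51.6 in Hashtag5, 18.2 in Hashtag6, 45.01 in Hashtag8 and 44.8 in Hashtag9. Both hashtags lay above all of the other 5, and Hashtag15 lay well above Hashtag14. The nearest pair, Hashtag14 and Hashtag3, differed 3.07-fold (2.75 to 3.42). These levels rest on 995 and 3347 UMIs, against 226 to 891. The gap was 2.25-fold at matched depth, 3.37-fold in the gate and 2.53-fold in depth-matched gate cells. Of the 24 listed factors NR2F2, ZNF385B and TBX5 were at least 1.5-fold higher and TBX18 and HEY2 at least 1.5-fold lower, and 10 overlapped. Of all 10500 genes with a mean of at least 5 CPM, 0.914% were higher and 0.152% lower by that gap, and 7191 overlapped. NR2F2 lies at chr15:96325938-96340263 on the forward strand (GENCODE 29 on GRCh38).

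NR2F2-AS1, the antisense gene that overlaps the start of NR2F2, had 26.3 and 35.4 CPM in Hashtag14 and Hashtag15, against 5.83, 6.20, 2.33, 3.49 and 5.72 CPM in Hashtag3, 5, 6, 8 and 9. Its nearest pair differed 4.24-fold (3.29 to 5.499). The counting setting for strand is not given in the sources used here, so reads of the 2 overlapping genes may not be separable.

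The second marker given for these hashtags, HCN4, was less set apart. It had 133 CPM in Hashtag14 and 117 CPM in Hashtag15, against 86.0, 55.5, 55.3, 60.3 and 61.3 CPM in Hashtag3, 5, 6, 8 and 9. The sides did not overlap, but the nearest pair differed only 1.36-fold (1.24 to 1.498), and Hashtag3 stood above the other 4. Within 6000 to 12000 UMIs the levels were 140.5 and 125 CPM against 60.3 to 112 CPM, and the nearest pair differed 1.12-fold. HCN4 therefore did not reach the 1.5-fold gap used below, in any of the 4 cell sets.

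A gene was counted as higher when both Hashtag14 and Hashtag15 lay at least 1.5-fold above the nearest of the other 5, and as lower in the mirror case, among genes with a mean of at least 5 CPM over the 7 hashtags. Of 10500 such genes 96 were higher (0.914%) and 16 were lower (0.152%). With no minimum gap, 2263 genes (21.6%) lay wholly above and 1046 (9.96%) wholly below. In the gate 128 of 10357 genes were higher (1.24%) and 23 were lower (0.222%). At matched depth 47 of 10455 genes were higher (0.45%) and 31 were lower (0.297%), and in depth-matched gate cells 63 of 10264 were higher (0.614%) and 34 were lower (0.331%). With no minimum gap, 23.1% of genes lay wholly above and 10.4% wholly below in the gate, 11.6% and 7.06% at matched depth, and 13.1% and 7.14% in depth-matched gate cells. Since the sides were chosen on this contrast, these shares are a backdrop for the genes below and say nothing of chance. The median log2 ratio over all measured genes was 0.07.

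**Figure D1:**
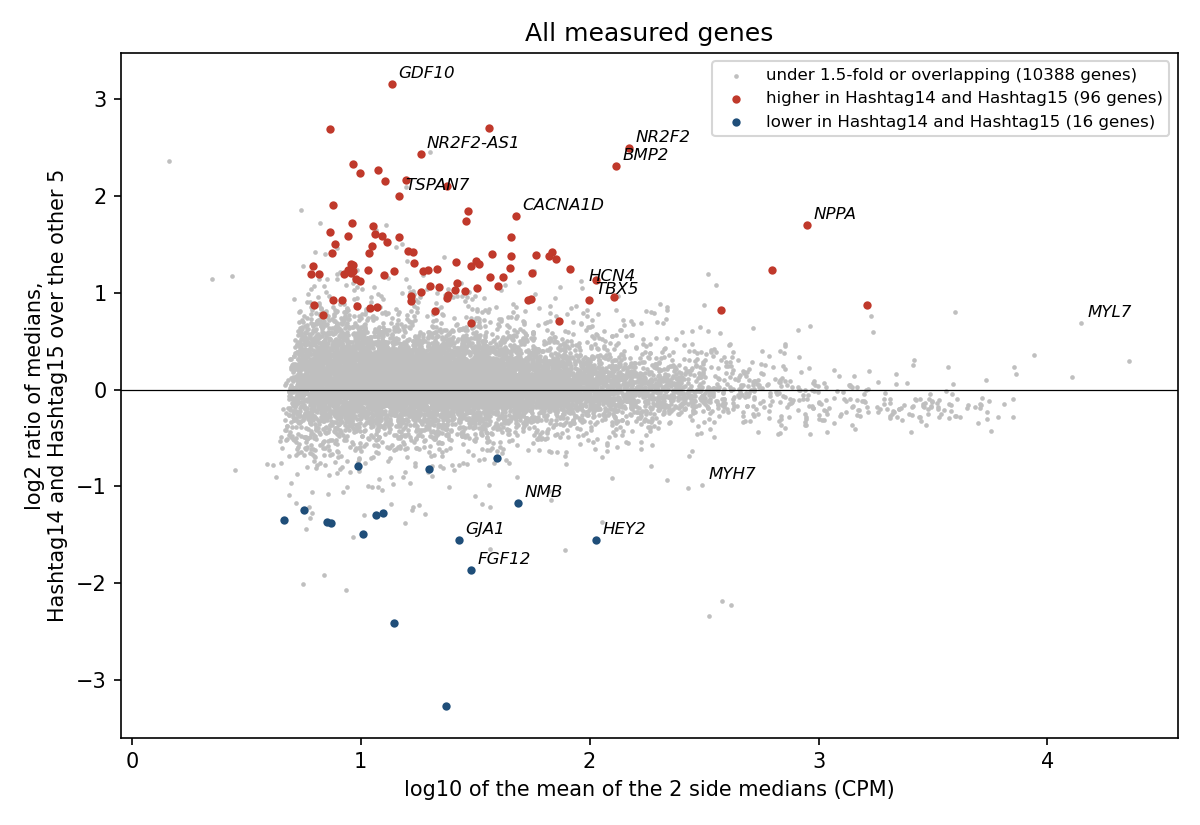
Each point is 1 of the 10500 measured genes, with the log10 of the mean of the side medians (CPM) on the x axis and the log2 ratio of medians, Hashtag14 and Hashtag15 over the other 5, on the y axis. Red points are the 96 genes at least 1.5-fold higher and blue points the 16 at least 1.5-fold lower between the nearest hashtags; NR2F2, BMP2 and NPPA stand out at high levels, while HCN4, MYL7 and MYH7 are among the grey points.

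Atrial genes that lay apart all lay above. Of 20 listed atrial genes 13 were measured, and 4 were higher (NPPA, CACNA1D, TBX5 and NR2F2, on which the sides were chosen), beside 0.914% of all genes. A further 5 lay wholly above without reaching 1.5-fold, and none lay below, beside 21.6% and 9.96% of all genes at any gap. Their median log2 ratio was 0.84, beside 0.07 over all genes. In depth-matched gate cells CACNA1D and NR2F2 alone were higher among the 13, beside 0.614% of all genes. The list was written with earlier results of these data known, so its direction is no independent evidence.

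NPPA, which encodes atrial natriuretic peptide, had 1331 and 1394 CPM in Hashtag14 and Hashtag15, against 665, 387, 377, 420.3 and 598 CPM in Hashtag3, 5, 6, 8 and 9. CACNA1D, the pore of the calcium channel Cav1.3 of atrial and nodal cells, had 66.8 and 81.1 CPM, against 27.0, 21.4, 16.4, 23.7 and 16.4 CPM. TBX5, a T-box factor of the atria and conduction system that is also active in the left ventricle, had 127 and 134 CPM, against 77.1, 68.8, 70.1, 62.9 and 68.0 CPM. In each of these genes the sides did not overlap and Hashtag14 and Hashtag15 were close to each other. The nearest pairs differed 2.00-fold (1.93 to 2.07) for NPPA, 2.47-fold (2.09 to 2.92) for CACNA1D and 1.65-fold (1.48 to 1.84) for TBX5. In depth-matched gate cells CACNA1D kept a 1.98-fold gap, but TBX5 had 1.37-fold and NPPA 1.21-fold.

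MYL7, the atrial myosin light chain, which immature cardiomyocytes also express, had 15765 and 18872 CPM in Hashtag14 and Hashtag15, against 7790.3 to 11763 CPM, a nearest gap of 1.34-fold. In depth-matched gate cells its gap was 1.00-fold. MYL4, another atrial light chain, overlapped, with 5327 and 5262 CPM against 4702 to 6115 CPM. NR2F1, the close relative of NR2F2, overlapped over all cells: it had 16.6 CPM in Hashtag14 and 51.1 CPM in Hashtag15, against 2.57 to 17.4 CPM. It was higher within the gate, by 1.86-fold, and not in depth-matched gate cells, with 1.05-fold. KCNA5 and SLN, a potassium channel and a calcium pump regulator of the atria, stayed under the 5 CPM minimum.

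The start regions of 3 of the higher genes are shown to give the sequence context of NPPA, CACNA1D and GDF10, a secreted factor described below. They are the 250 bases before the RefSeq start (GRCh38.p14), and in all 3 GENCODE 29 has no exon there. The NPPA window lies at chr1:11847784-11848033 on the reverse strand, where the annotated genes NPPA and CLCN6 overlap it. The CACNA1D window lies at chr3:53494361-53494610 on the forward strand, inside the longer annotated gene. The GDF10 window lies at chr10:47299947-47300196 on the forward strand. Capitals mark any of 5 motifs, each searched as an exact string on both strands. They are the nuclear receptor half-site AGGTCA, the T-box core AGGTGT, the E-box CACGTG, the TATA core TATAAA and the form AGATAA of the GATA site. Other forms of the GATA site were not searched, among them TGATAA, which the NPPA window holds unmarked.
NPPA: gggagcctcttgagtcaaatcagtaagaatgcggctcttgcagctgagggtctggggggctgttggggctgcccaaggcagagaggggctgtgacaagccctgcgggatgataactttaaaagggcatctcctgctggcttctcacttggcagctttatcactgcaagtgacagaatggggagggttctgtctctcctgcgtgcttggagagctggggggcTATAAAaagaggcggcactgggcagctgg
CACNA1D: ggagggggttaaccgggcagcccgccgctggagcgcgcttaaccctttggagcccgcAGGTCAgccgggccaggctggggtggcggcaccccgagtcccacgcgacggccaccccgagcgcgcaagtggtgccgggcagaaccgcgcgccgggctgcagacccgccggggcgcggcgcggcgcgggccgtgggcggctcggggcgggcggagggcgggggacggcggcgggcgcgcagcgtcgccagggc
GDF10: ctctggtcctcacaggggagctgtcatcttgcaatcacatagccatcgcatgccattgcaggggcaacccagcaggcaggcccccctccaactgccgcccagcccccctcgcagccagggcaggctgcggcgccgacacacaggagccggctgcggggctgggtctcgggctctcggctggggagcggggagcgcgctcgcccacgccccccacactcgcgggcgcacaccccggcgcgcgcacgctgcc
The NPPA window held TATAAA at position -29 from the start, the CACNA1D window held AGGTCA at position -193, and the GDF10 window held none of the 5. Of 35116 such windows 12.1% held AGGTCA, 9.57% AGGTGT, 6.34% CACGTG, 10.7% TATAAA and 9.17% AGATAA. Among the 96 higher genes 58 had a window and 8 of these held AGGTCA (13.8%), against 639 of 8358 windows of all measured genes (7.65%). TATAAA was in 8.62%, against 4.88%, AGGTGT in 3.45%, against 7.10%, CACGTG in 6.90%, against 9.15%, and AGATAA in 0 of the 58, against 4.16%. Of the 16 lower genes 10 had a window, and 1 of these held AGGTCA. No test was made, a match is not a binding site, and a window without AGATAA may hold another form of the GATA site.

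Pacemaker genes mostly lay above too over all cells, with a median log2 ratio of 0.82, close to that of the atrial list. Of 15 listed genes 11 were measured, and 1 was higher (VSNL1, a neuronal calcium sensor also found in the sinus node), 6 more, HCN4 among them, lay wholly above under 1.5-fold, 3 overlapped and 1 was lower (TBX18, a T-box factor of the sinus venosus and epicardium). Of all genes 0.914% were higher, 0.152% were lower and 21.6% lay wholly above at any gap. In depth-matched gate cells 10 pacemaker genes were measured and 6 of them overlapped. There VSNL1 was higher, 3 more lay wholly above under 1.5-fold, and the median log2 ratio was 0.67. Over all genes in those cells 0.614% were higher and 13.1% lay wholly above at any gap. Over all cells the 15 pacemaker genes summed to 399 and 396 CPM in Hashtag14 and Hashtag15, against 169 to 255 CPM. The 20 atrial genes summed to 23108 and 26464 CPM, against 13249 to 18508 CPM. Most of the atrial sum was MYL7 alone, with 15765 and 18872 CPM against 7790.3 to 11763 CPM. VSNL1 had 16.6 and 22.7 CPM in Hashtag14 and Hashtag15, against 2.33 to 6.19 CPM, and TBX18 had 4.14 and 6.54 CPM, against 10.3 to 19.4 CPM. With cells of a hashtag share of at least 90% neither was past 1.5-fold: the log2 ratio of the nearest hashtags was 0.51 for VSNL1 and -0.17 for TBX18, and for TBX18 it was -0.38 in a 3% gate. TBX3, a repressor of working muscle genes in the conduction system, had 102 CPM in Hashtag14 but 57.5 CPM in Hashtag15, against 27.5 to 52.0 CPM. SHOX2, a homeobox factor of the sinus node, had 10.4 and 40.7 CPM, against 6.06, 6.02, 1.13, 9.58 and 5.56 CPM. The high SHOX2 level was thus that of Hashtag15 alone, and Hashtag14 lay next to Hashtag8. ISL1, a factor of heart progenitors and the sinus node, overlapped.

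Ventricular genes that lay apart all lay below. Of 15 listed genes 14 were measured, and 2 were lower (HEY2 and GJA1), 6 more lay wholly below under 1.5-fold, 6 overlapped and none lay above. Of all genes 0.152% were lower, 9.96% lay wholly below at any gap and 21.6% wholly above. Their median log2 ratio was -0.69. In depth-matched gate cells 4 were lower, with IRX4 and HAND1 added, beside 0.331% of all genes.

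HEY2 had 54.4 CPM in Hashtag14 and 53.8 CPM in Hashtag15, against 129, 159, 201, 157 and 186 CPM in Hashtag3, 5, 6, 8 and 9. Its nearest pair, Hashtag14 and Hashtag3, differed 2.37-fold (2.09 to 2.70). The 2 hashtags had nearly the same level, below all of the other 5. At matched depth the gap was wider, 3.04-fold, with 29.7 and 19.8 CPM against 90.2 to 148 CPM, and in depth-matched gate cells it was 3.65-fold.

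GJA1, the gap junction protein connexin 43 that couples ventricular cells, had 10.8 and 16.4 CPM in Hashtag14 and Hashtag15, against 30.8, 44.4, 39.9, 29.5 and 59.2 CPM. IRX4 had 80.5 and 39.5 CPM, against 112, 90.3, 114, 96.7 and 93.9 CPM. MYH7, the slow myosin heavy chain, had 268 and 148 CPM, against 413, 409.8, 395, 508 and 903 CPM. None of these overlapped, and in each the 2 hashtags differed from each other as well. The nearest gaps were 1.80-fold (1.49 to 2.19) for GJA1, 1.12-fold for IRX4 and 1.48-fold for MYH7. With cells of a hashtag share of at least 90%, GJA1 was nearly level between the nearest hashtags, at a log2 ratio of -0.04. MYL2, the ventricular myosin light chain, overlapped, with 24.0 CPM in Hashtag14 and 6.34 CPM in Hashtag15, against 13.4 to 43.3 CPM. MYH6, the fast heavy chain, ran the other way, with 5194 and 4884 CPM against 2645 to 3399 CPM, a gap of 1.44-fold.

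**Figure D2:**
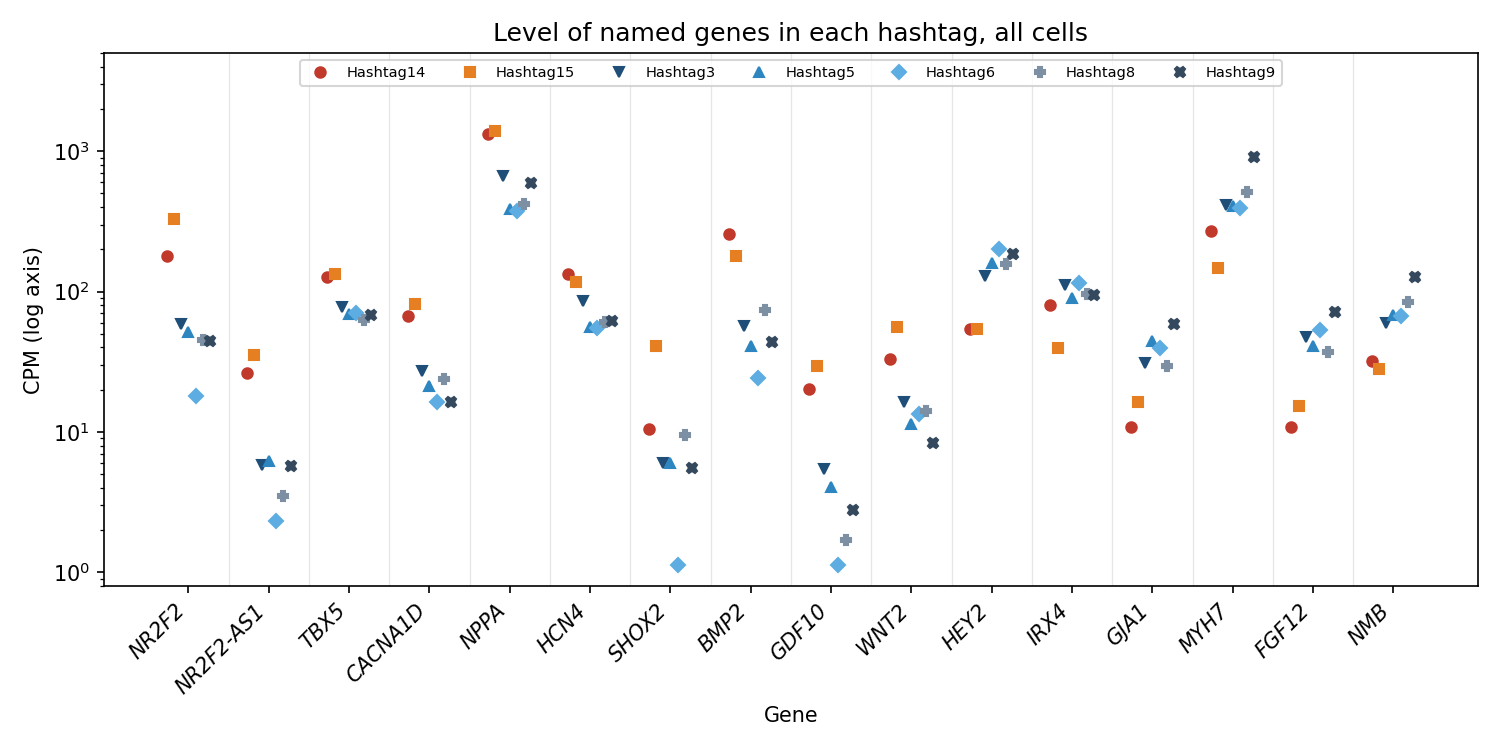
Points give the level of 16 genes in CPM (log y axis) in Hashtag14 (red), Hashtag15 (orange) and the other 5 hashtags (blue and grey), from all cells of each. The red and orange points lie above the rest for NR2F2, TBX5, CACNA1D, NPPA and BMP2 and below the rest for HEY2, GJA1, FGF12 and NMB; for SHOX2, Hashtag15 stands apart at 40.7 CPM and Hashtag14 does not.

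Few of the other ion handling genes reached 1.5-fold, and few of all genes did (0.914% higher and 0.152% lower). Of 11 measured depolarising channel genes CACNA1D was higher and 5 more lay wholly above under 1.5-fold. CACNA1G, the T-type channel Cav3.1, had 29.4 and 27.9 CPM in Hashtag14 and Hashtag15, against 16.4 to 21.0 CPM. No gene was higher or lower among 7 potassium channel and 17 calcium handling genes. Of the potassium channel genes 2 lay wholly above, and of the calcium handling genes 6 lay wholly above and 4 wholly below. Over all genes 21.6% lay wholly above and 9.96% wholly below. RYR2, the calcium release channel, had 237 and 218 CPM, against 190.2 to 215 CPM. FGF12, a modulator of sodium channels, was lower, with 10.8 and 15.3 CPM against 47.7, 41.2, 52.9, 37.1 and 71.6 CPM, but its 2.42-fold gap was 1.30-fold at matched depth.

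Genes of signalling pathways were another listed group. Of 29 listed genes of the TGF-beta, BMP, WNT, FGF and Notch pathways 23 were measured. Of these BMP2, SFRP1, WNT2 and JAG1 were higher and FGF12, the sodium channel modulator named above, was lower, beside 0.914% and 0.152% of all genes. The list's median log2 ratio was 0.20. BMP2, a ligand that patterns the atrioventricular canal, had 256 CPM in Hashtag14 and 179 CPM in Hashtag15, against 56.8, 41.0, 24.3, 74.2 and 44.0 CPM, a nearest gap of 2.42-fold (2.22 to 2.64). SFRP1, a secreted WNT inhibitor, had 808 and 958 CPM, against 423, 375, 191, 353 and 381 CPM. BMP2 was highest in Hashtag14 and SFRP1 in Hashtag15, and for neither did the sides overlap. WNT2, a WNT ligand, had 33.0 and 56.2 CPM, against 8.34 to 16.4 CPM, and JAG1, a Notch ligand, had 74.0 and 118 CPM, against 28.0 to 46.3 CPM. In depth-matched gate cells BMP2 (2.14-fold) and SFRP1 (1.61-fold) kept a gap of 1.5-fold, while WNT2 (1.37-fold) and JAG1 (1.27-fold) did not, and WNT5A, a WNT ligand, was lower by 1.53-fold. Within 6000 to 12000 UMIs without the gate BMP2 alone of the list was higher, SFRP1 had 1.31-fold, and the list's median log2 ratio was -0.02. Of all genes 0.45% were higher in that range, and in depth-matched gate cells 0.614% were higher and 0.331% lower.

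Further genes had wide gaps. GDF10, a secreted relative of the BMPs, had 20.2 and 29.3 CPM in Hashtag14 and Hashtag15, against 5.48, 4.05, 1.13, 1.70 and 2.78 CPM, a gap of 3.68-fold (2.597 to 5.29). TSPAN7, a membrane tetraspanin, had 24.5 and 22.7 CPM, against 4.74 to 7.34 CPM. ZNF385B, a zinc finger protein counted above among the cardiac factors, had 33.1 and 43.9 CPM, against 5.47 to 12.4 CPM. Each kept a gap of at least 2-fold in depth-matched gate cells, 5.06-fold, 2.03-fold and 2.08-fold. SAA1 (acute phase protein), COL4A6 (basement membrane collagen), RABGAP1L (a GTPase-activating protein) and the noncoding ST7-AS1 had gaps of 2.57-fold, 2.07-fold, 2.09-fold and 2.17-fold. HAS2, which makes the hyaluronan of the cardiac cushions, had 2.02-fold over all cells and 1.12-fold at matched depth. On the lower side, the neuropeptide gene NMB had 32.1 and 27.9 CPM, against 60.2 to 126 CPM, and RILP and NTHL1, a lysosomal adaptor and a DNA glycosylase, had gaps of 1.63-fold and 1.54-fold. Neither stayed past 1.5-fold at matched depth, in depth-matched gate cells, in a 3% gate or at a hashtag share of 90%; at matched depth the log2 ratio of the nearest hashtags was -0.04 for RILP and -0.54 for NTHL1.

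Retinoic acid, a signal that patterns the atria, has its own response genes, and these mostly overlapped, as did 7191 of all 10500 genes. None of 9 measured genes of 20 listed was higher or lower, beside 0.914% and 0.152% of all genes. Of the 9 genes 8 overlapped, and the list's median log2 ratio was 0.02. CRABP2, a retinoic acid binding protein, had 322 and 244 CPM in Hashtag14 and Hashtag15, against 214 to 320.3 CPM, and RARB, a receptor and target gene, had 17.5 and 13.6 CPM, against 10.5 to 16.1 CPM. DHRS3, a retinaldehyde reductase, had 11.9 and 18.3 CPM, against 19.0 to 38.8 CPM, wholly below by 1.04-fold. CYP26A1, which degrades retinoic acid, was under 5 CPM on average.

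Several general programmes held few or no genes past 1.5-fold, but only 0.914% of all genes were higher and 0.152% lower, so short lists seldom hold one. Of 13 measured junction and adhesion genes GJA1 was lower and none was higher, and of 3 measured natriuretic peptide genes NPPA was higher and NPPB overlapped, with 1367 and 699 CPM against 465 to 1766 CPM. No gene was higher or lower among the measured genes of HOX clusters (7), sarcomere isoforms (18), glycolysis (24), oxidative metabolism (16), extracellular matrix (26), stress (20), apoptosis (11), S phase (19), G2M phase (24) or surface markers (14). Among the 18 sarcomere isoforms 6 lay wholly above and 3 wholly below under 1.5-fold, beside 21.6% and 9.96% of all genes at any gap. The lists' median log2 ratios ran from -0.30 for apoptosis to 0.35 for G2M phase. In depth-matched gate cells 2 of 21 G2M genes (CENPE and UBE2C) were higher, 13 more lay wholly above and the median log2 ratio was 0.98. Over all genes in those cells 0.614% were higher, 13.1% lay wholly above at any gap and the median log2 ratio was 0.06.

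**Figure D3:**
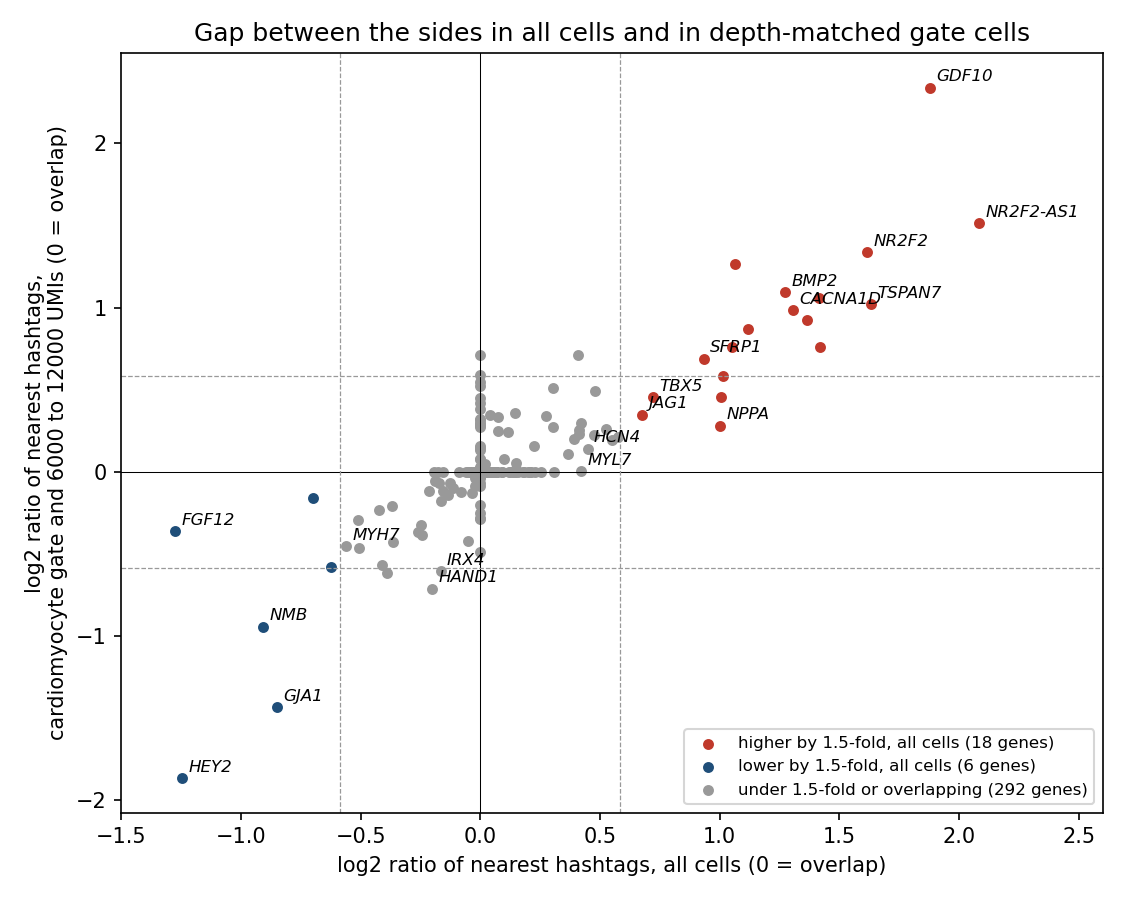
Each point is a listed or named gene measured in both cell sets, with the log2 ratio of the nearest hashtags over all cells (x) and in depth-matched gate cells (y); 0 means that the sides overlap, dashed lines mark 1.5-fold, and positive values are higher in Hashtag14 and Hashtag15. GDF10, NR2F2, BMP2 and CACNA1D stay past the line on both axes, HEY2 and GJA1 lie lower in matched cells, and NPPA, TBX5 and FGF12 come inside it.

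How many cells carried the transcripts was asked after every cell was thinned to 3000 UMIs. Shallower cells were left out, 58 in Hashtag14 and 107 in Hashtag15, against 36, 123, 84, 52 and 28 in Hashtag3, 5, 6, 8 and 9. NR2F2 was seen in 35.8% of Hashtag14 cells (31.8 to 39.9) and 56.2% of Hashtag15 cells (53.0 to 59.3), against 12.6%, 12.3%, 3.93%, 11.2% and 12.03%. Without thinning the shares were 53.0% and 75.2%, against 12.1% to 30.0%. HEY2 was seen in 13.5% and 8.83% of thinned cells, against 27.5% to 38.5%. HCN4 was seen in 34.3% and 30.6%, against 15.0% to 24.7%, but without thinning in 60.8% and 60.4%, against 44.1% to 57.2%. In bulk-like pooled levels, fewer expressing cells and less RNA per cell cannot be told apart, and a share after thinning is itself set by both.

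Free RNA was gauged in 137 thinned cells with endoderm markers at or above 1% of UMIs that lay below the cardiomyocyte gate, whose median depth was 17520 UMIs. HCN4 was seen in 1.46% of them, CACNA1D in 2.19%, TBX5 in 1.46%, HEY2 in 3.65% and NPPA in 8.76%. The shares of these genes in Hashtag14 and Hashtag15 lay above those levels, but cells there were shallower, with medians of 8073 and 8324 UMIs. Free RNA can be a smaller part of the UMIs of deeper cells, so those levels may be too low for Hashtag14 and Hashtag15. The part of free RNA was not tested. NR2F2 was seen in 19.7% (13.4 to 27.4) of the endoderm-marker cells, so this class does not serve as a blank for it.

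Within the gate, cells with NR2F2 and no HEY2 were 33.5% of Hashtag14 and 54.8% of Hashtag15, against 2.58% to 10.5% of the other 5. Cells with HEY2 and no NR2F2 were 10.4% and 6.14%, against 27.5% to 38.6%. Cells with both were few in every hashtag, 2.79% and 3.49% against 0.737% to 1.41%. Neither the NR2F2-only nor the HEY2-only share overlapped between the sides. The sides were chosen on NR2F2 and both classes are defined by it, so this is a description and no independent evidence. At least 4 NR2F2 UMIs were found in 2.04% and 7.34% of thinned gate cells, against at most 0.355%.

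**Figure D4:**
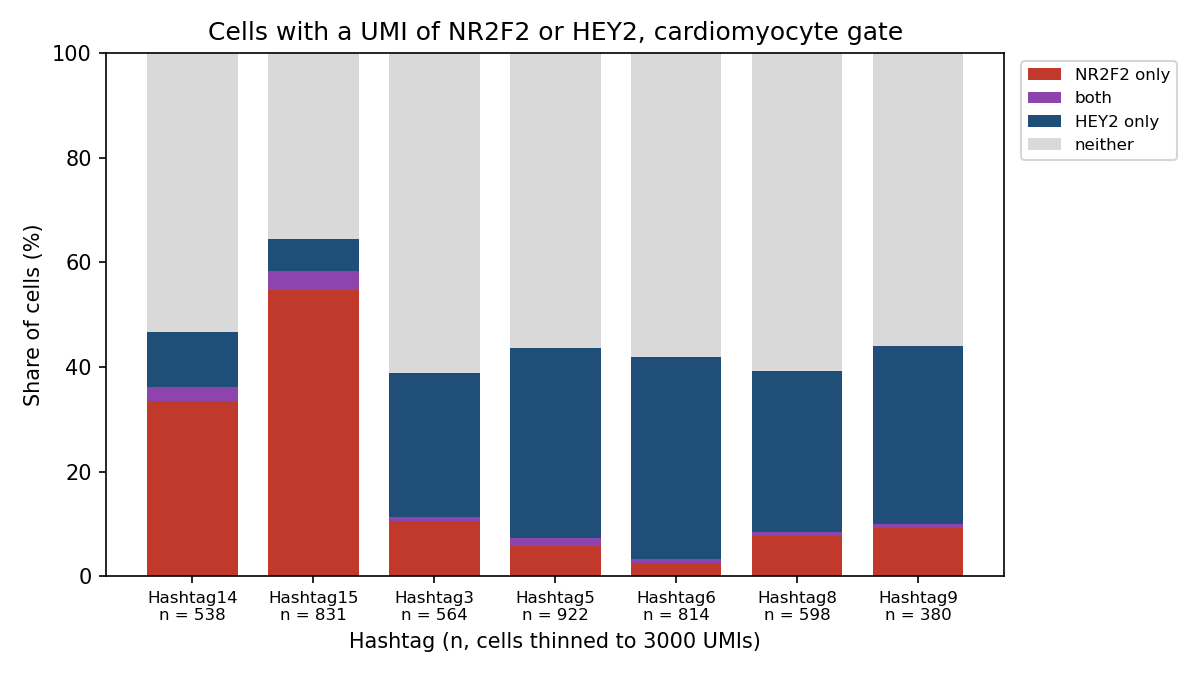
Bars give the share (%) of cardiomyocyte-gate cells, thinned to 3000 UMIs, with a UMI of NR2F2 only (red), of both genes (purple), of HEY2 only (blue) or of neither (grey) in each of the 7 hashtags. The red part reaches 33.5% in Hashtag14 and 54.8% in Hashtag15 and at most 10.5% elsewhere, while the blue part is 10.4% and 6.14% there and at least 27.5% elsewhere.

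Membership rested on the 70% hashtag share, and levels of both genes moved with that share. Among barcodes led by Hashtag14, NR2F2 had 144 CPM at a share of 50% to 70%, just outside the threshold, 167 CPM at 70% to 80%, just inside it, 165 CPM at 80% to 90% and 219 CPM from 90%. Among those led by Hashtag15 it had 179, 223, 325 and 418 CPM over the same 4 ranges. Among those led by the other 5 it had 42.3, 38.6, 41.5 and 54.1 CPM. NR2F2 was thus higher in the purer barcodes, with a wider spread over the ranges in Hashtag15 than in Hashtag14.

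HEY2 ran the opposite way: it had 77.9, 64.7, 61.5 and 27.7 CPM in barcodes led by Hashtag14 and 105, 87.3, 55.1 and 23.5 CPM in those led by Hashtag15, against 175, 171, 165 and 162 CPM in those led by the other 5. Barcodes of Hashtag15 at 50% to 70% were also deeper, with a median of 12525.5 UMIs against 7843 from 90%. The part of mixed barcodes in the levels given above was not tested.

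**Figure D5:**
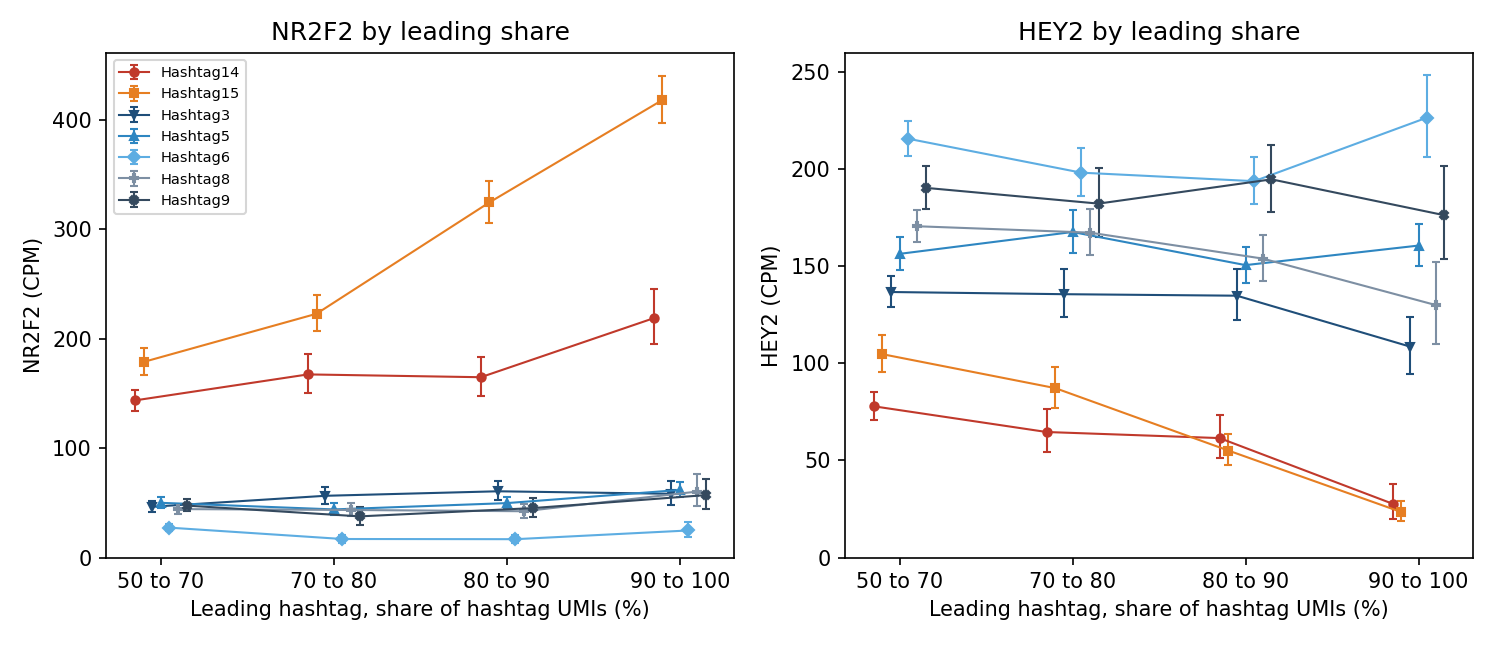
NR2F2 (left) and HEY2 (right) in CPM, by the share (%) of hashtag UMIs held by the leading hashtag, for barcodes led by each of the 7 hashtags; bars are exact 95% Poisson intervals. From 90% on, NR2F2 reached 219 CPM in Hashtag14 and 418 CPM in Hashtag15 and HEY2 27.7 and 23.5 CPM, below the lines of the other 5 for HEY2 and above them for NR2F2.

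Hashtag14 and Hashtag15 were not alike in everything. Of 10674 genes measured in the pair, 314 (2.94%) were at least 1.5-fold higher in Hashtag14 and 284 (2.66%) at least 1.5-fold higher in Hashtag15. CRH, the corticotropin-releasing hormone gene, had 29.003 CPM in Hashtag14, against 0.781 CPM in Hashtag15 and at most 3.03 CPM in the other 5. The stress response gene ATF3 had 184 CPM in Hashtag14, against 52.1 CPM in Hashtag15, and the immediate early gene IER3 had 351 CPM, against 119 CPM. In the other 5, ATF3 had 48.5 to 129 CPM and IER3 132 to 179.5 CPM. Other listed stress genes went both ways: JUN, an immediate early factor, had 387 CPM in Hashtag14, against 248 CPM in Hashtag15. HSPA1A, a heat shock protein, had 33.5 CPM, against 48.1 CPM, MT2A, a metallothionein, had 129 CPM, against 163 CPM, and EGR1, another immediate early factor, had 27.4 CPM, against 23.6 CPM, with an interval of the ratio that spans 1 (0.94 to 1.43).

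Other genes stood higher in Hashtag15. CALB2, a calcium-binding protein, had 23.9 CPM in Hashtag15, against 3.24 CPM in Hashtag14, and BMP4, a ligand of the BMP pathway, had 35.0 CPM, against 9.55 CPM. SHOX2 was 3.90-fold and NR2F1 3.09-fold higher in Hashtag15 than in Hashtag14. For BMP4 the other 5 ranged from 2.41 to 14.2 CPM, so Hashtag14 lay inside their range.

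Markers of other cell types were given beside these levels. The 12 stromal markers summed to 163 and 267 CPM in Hashtag14 and Hashtag15, against 98.8 to 426 CPM, and the 12 endoderm markers to 262 and 448 CPM, against 60.8 to 1028 CPM. The 9 epicardial markers summed to 11.9 and 20.4 CPM, against 24.4 to 52.1 CPM. The 12 endothelial markers summed to 126 and 113 CPM, against 72.5 to 79.98 CPM. Most of the sum was KDR and EGFL7. KDR, which cardiac progenitors also express, lay wholly above over all cells, with 68.8 and 40.9 CPM against 18.7 to 37.0 CPM. EGFL7 overlapped, with 47.4 and 47.8 CPM against 35.0 to 51.0 CPM. Of the 12 endothelial markers 8 were under 5 CPM in Hashtag14 and Hashtag15 and none was at 0. Stromal and endoderm sums overlapped, epicardial sums lay wholly below and endothelial sums wholly above. Epithelial sums (1181 and 1293 CPM, against 1313 to 1809 CPM) and pluripotency sums (10.1 and 9.47 CPM, against 10.7 to 13.1 CPM) lay below as well. Smooth muscle sums (939.8 and 958 CPM, against 477 to 1292 CPM), neural sums (15.5 and 29.4 CPM, against 6.84 to 43.8 CPM) and blood sums (2.16 and 1.95 CPM, against 0.483 to 1.97 CPM) overlapped. Within the gate the endothelial sum was 123 and 87.3 CPM, against 64.3 to 76.4 CPM. At matched depth 3 endothelial markers were measured and all 3 overlapped, as did all 3 in depth-matched gate cells. The part of these other cell types in the differences was not tested.

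Across all 13 hashtags genes whose levels ranked most like NR2F2 included FZD7 (Spearman 0.98), a WNT receptor, SCG5 (0.96), NR2F2-AS1 (0.96) and SAMD11 (0.95). These are descriptions over hashtags of 1 capture that share depth and composition. FZD7 had 34.2 and 58.1 CPM in Hashtag14 and Hashtag15, against 7.97 to 17.5 CPM in the other 5.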

How the data were processed

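The data are 2 libraries, gene expression and hashtags, of 1 pool of H9-derived cardiomyocytes. The authors deposited raw UMI counts per gene or hashtag and barcode, made with Cell Ranger 4.0.0 per the file headers and with build hg38 per the submitters' processing notes; the sources used here give no annotation release, strand setting or cell calling rule. All barcodes carry 1 suffix, so 1 capture is shown.

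Counts were pooled per hashtag (5551197 to 17268742 UMIs) and scaled to CPM with Python 3.11.15, scipy 1.17.1 and pandas 2.3.3. A gene was measured at a mean of at least 5 CPM over the 7 hashtags. A hashtag with 0 counts was set at 3 counts. Levels have exact Poisson, ratios exact conditional binomial and shares Clopper-Pearson intervals at 95%. UMIs of 1 sample are not replicates, so no p-value was computed. Gene positions are from GENCODE 29 (34616 of 36601 identifiers matched). Start regions are from RefSeq.

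Doublets were limited by the 70% hashtag share, which left out 11286 of the 21623 filtered barcodes. That is a larger part than the share expected as doublets. A lower leading share does not by itself mark a doublet, and the reason for it was not tested. Scrublet (scanpy 1.11.5) marked 2508 of 21623 barcodes (11.6%, expected 17.3%), among them 7.70% of Hashtag14 and 8.79% of Hashtag15, against 7.08% to 12.5% of the other 5. These were removed as an alternative only. Doublets of cells with the same hashtag are not seen by the share.

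Named genes were a fixed set of 40 heart genes, up to 4 genes per list and direction past 1.5-fold, and up to 12 genes in each direction with the widest gap at 20 CPM or more on the higher side, 58 in all. CRH, ATF3, IER3, CALB2 and BMP4, from the widest folds between Hashtag14 and Hashtag15, and the listed genes MYL4, KDR, EGFL7, WNT5A, JUN, HSPA1A, MT2A and EGR1 were named after their values were seen. The members, the 31 lists and the rule were chosen with earlier results of these data known. Alternatives covered depth, gates, filters, hashtag share, doublets, scaling with edgeR 4.0.16 (TMM) and DESeq2 1.42.0, gap size and each hashtag left out. The calculation was tested on simulated data. A gene that the naming rule picks is not reported here.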

Additional observations from a re-analysis of the deposited data

Results flagged for a closer look

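Dixon's gap rule was applied to the 54 measured named genes over Hashtag3, 5, 6, 8 and 9, and set 1 hashtag apart in 4 of them; chance alone flags about 1 in 20. HCN4 was 86.0 CPM in Hashtag3, next to 61.3 CPM in Hashtag9, so that the nearest hashtag to Hashtag14 and Hashtag15 is itself far from the other 4. MYH7 was 903 CPM in Hashtag9, next to 508 CPM in Hashtag8, and MYL2 was 43.3 CPM in Hashtag9, next to 21.6 CPM in Hashtag8. CD200, a surface glycoprotein, was 3.22 CPM in Hashtag6, next to 7.81 CPM in Hashtag3.

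NR2F2 was also high in hashtags outside the comparison: 208 CPM in Hashtag1 and 160.3 CPM in Hashtag2, against 14.5 to 34.4 CPM in Hashtag4, 7, 10 and 12. Only 35.1% of Hashtag1 and 54.6% of Hashtag2 cells lay in the cardiomyocyte gate, and in thinned gate cells NR2F2 was seen in 4.55% and 2.37%, within or below the 3.32% to 11.3% of Hashtag3, 5, 6, 8 and 9.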

How the results depend on the processing

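The 96 higher and 16 lower genes depended on the cells and thresholds. Higher genes numbered 47 within 6000 to 12000 UMIs, 65 in the 3% gate, 63 in depth-matched gate cells, 331 with no filter on low values, 40 from a mean of 20 CPM, 317 at a gap of 25% and 26 at 2-fold. Lower genes numbered 31 within 6000 to 12000 UMIs, 31 in the 3% gate, 34 in depth-matched gate cells, 37 from a hashtag share of 90%, 34 with Scrublet doublets removed, 60 with no filter on low values, 7 from a mean of 20 CPM, 85 at a gap of 25% and 5 at 2-fold. Leaving out each hashtag in turn gave 104 to 222 higher and 16 to 71 lower genes. Fewer hashtags make the rule easier to meet: without Hashtag14 there were 184 and 63, without Hashtag15 222 and 71, and without Hashtag3 140 higher and 32 lower genes. At matched depth 33 of the 96 were still counted, while 93 of the 95 measured still lay wholly above. Of the 16 lower genes 5 were still counted at a hashtag share of 90% and 10 still lay wholly below; at matched depth 9 were still counted, in the 3% gate 6 and in depth-matched gate cells 8. Without thinning, the shares were 53.0%, 75.2%, 12.1% and 30.0% for NR2F2 (Hashtag14, Hashtag15, lowest and highest of the other 5 after thinning) and 60.8%, 60.4%, 45.6% and 57.2% for HCN4. TMM gave 85 higher and 23 lower genes. Of 25 counted named genes none reversed, and 12 stayed past 1.5-fold under every alternative that measured them: BMP2, CACNA1D, COL4A6, GDF10, HEY2, NR2F2, NR2F2-AS1, RABGAP1L, SAA1, ST7-AS1, TSPAN7 and ZNF385B. Causes were not tested. Single capture lanes could not be compared, since all barcodes share 1 suffix. No paired analysis was possible because the labels give the hashtags no groups or replicate numbers. Genes under 5 CPM rest on few UMIs, and counting intervals leave out variation between samples.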
